A study of Mus musculus with 20 samples.

Results

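Selected organoids are mouse proximal colon organoids that carry an activated BrafV600E oncogene and were selected to grow in base medium, which lacks the stem-cell niche factors. The comparison described here set 3 such lines after 48 h in base medium against the same 3 lines after 48 h in the medium the labels call ENSW, which gave 6 of the 20 arrays of the series. Members were taken by sample title, and every probe other than controls entered the comparison. The organoids came from the first 2.5 cm of the colon of male mice around 40 days old that were heterozygous for a Cre-activable BrafV600E allele (Braf+/LSL). The other organoid types were EV organoids, given the empty lentiviral backbone so that the allele stayed silent, and BRAF organoids, in which Cre had switched the oncogene on 5 months earlier, each with 3 lines in both media. The labels state neither the time since induction for selected organoids, nor whether a line is 1 clone, nor whether lines came from separate animals. The p-values therefore concern these lines alone. They rest on the spread of the medium difference between lines, pooled over the 3 organoid types. Organoids grew in Matrigel, in a culture medium made of conditioned media (50% for Wnt3a, 20% for R-spondin, 10% for Noggin) with EGF, and the letters ENSW are not spelled out in the labels.

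In the colon, Wnt ligands, with R-spondins that stabilise their receptors, keep crypt base cells in a dividing, undifferentiated state. Noggin binds bone morphogenetic proteins (BMPs), which signal through SMAD proteins, switch on the Id genes and favour differentiation, and EGF acts through RAS, RAF and ERK kinases. BrafV600E is a constitutively active RAF kinase below the EGF receptor. Organoids of normal colon depend on these factors for growth.

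The promoters of the BMP targets Id2, Id3 and Atoh8 and of the cholesterol synthesis gene Hmgcs1 are shown. Of these genes Id3 alone passed the test described below. The promoters are RefSeq windows of build GRCm38.p6, from 250 bases before to 50 bases after the gene start, written along the gene's strand. Capitals mark matches to GGCGCC (a BMP responsive motif), CACGTG (an E box) or TCACNCCAC (a sterol regulatory type motif that was chosen after the values were seen). CTTTGA (TCF core) and TGACTCA (AP-1) were also searched on both strands and have no match in these 4 windows. The windows are chr12:25096043-25096342 (minus strand) for Id2, chr4:136143572-136143871 (plus strand) for Id3, chr6:72235528-72235827 (minus strand) for Atoh8 and chr13:119690101-119690400 (plus strand) for Hmgcs1.
Id2: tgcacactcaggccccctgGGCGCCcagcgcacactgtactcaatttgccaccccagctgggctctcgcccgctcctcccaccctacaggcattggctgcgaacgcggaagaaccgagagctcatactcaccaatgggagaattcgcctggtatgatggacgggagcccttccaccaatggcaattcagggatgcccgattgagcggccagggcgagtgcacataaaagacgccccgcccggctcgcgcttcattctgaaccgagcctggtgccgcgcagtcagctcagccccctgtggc
Id3: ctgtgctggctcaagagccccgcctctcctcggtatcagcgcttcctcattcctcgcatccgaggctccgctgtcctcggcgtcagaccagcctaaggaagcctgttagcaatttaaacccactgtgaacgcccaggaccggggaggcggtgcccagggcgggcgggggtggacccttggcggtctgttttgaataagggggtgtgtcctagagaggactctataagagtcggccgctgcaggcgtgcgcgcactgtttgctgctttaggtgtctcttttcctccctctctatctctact
Atoh8: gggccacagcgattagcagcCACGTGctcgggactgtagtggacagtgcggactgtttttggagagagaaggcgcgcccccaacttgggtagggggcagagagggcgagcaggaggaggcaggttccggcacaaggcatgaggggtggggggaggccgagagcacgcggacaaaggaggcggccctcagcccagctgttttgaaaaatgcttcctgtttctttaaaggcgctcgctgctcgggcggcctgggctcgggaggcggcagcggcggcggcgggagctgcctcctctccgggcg
Hmgcs1: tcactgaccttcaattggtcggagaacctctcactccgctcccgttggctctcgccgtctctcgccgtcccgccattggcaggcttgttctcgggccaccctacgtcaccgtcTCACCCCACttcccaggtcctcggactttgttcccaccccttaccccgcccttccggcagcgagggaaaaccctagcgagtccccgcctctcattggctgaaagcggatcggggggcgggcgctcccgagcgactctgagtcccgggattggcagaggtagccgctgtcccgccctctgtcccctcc
GGCGCC lies in the Id2 window, CACGTG in the Atoh8 window and TCACNCCAC in the Hmgcs1 window, and the Id3 window holds none of the 5. Of 27025 genes with a window, 13.4% hold GGCGCC, 8.09% hold CACGTG and 1.44% hold TCACNCCAC. Of the 9 BMP targets tested, 7 had a window, and 2 of these (Id2 and Id4) hold GGCGCC and 1 (Atoh8) holds CACGTG. Of the 22 cholesterol synthesis genes tested, 14 had a window, and 1 of these (Hmgcs1) holds TCACNCCAC, 2 hold GGCGCC and 4 hold CACGTG. Of the 19 Wnt targets tested, 12 had a window, and 3 of these hold GGCGCC and 3 hold CACGTG. A match describes letters and is not evidence of binding.

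Levels are log2 intensities minus each array's 75th percentile, and differences are base minus ENSW medium on the log2 scale, so 1 unit is a doubling. The 18 arrays of the 3 organoid types had 59.6% to 65.2% of spots well above background, and the selected arrays 59.6% to 62.5%. Media of a selected line correlated at r = 0.990 to 0.992 across genes, line 2 with line 3 at 0.966 to 0.974, and line 1 with the other lines at 0.940 to 0.951, where genes are not independent replicates. Of 12 colon epithelium markers, all were measured and 11 were well above background on all 6 selected arrays, among them Epcam, Cdh1, Krt8 and Cdx2, while Cdx1 was on 4. Of 8 fibroblast markers 3 were measured, and Col1a1, Col3a1, Dcn, Lum and Pdgfra did not pass the filter on dim probes. On all 6 selected arrays, 2 of the 3 measured fibroblast and 2 of 3 endothelium markers were well above background. So were 4 of 5 blood and 3 of 3 muscle and nerve markers. Medians of the fibroblast, endothelium, blood, and muscle and nerve marker lists changed by -0.11, -0.12, 0.02 and -0.02 between the media. Lines 1 and 2 shared 1 slide and line 3 lay on another, always with both media of a line together. Every ENSW array lay at position 1 or 3 of its slide and every base array at position 2 or 4, so medium and position cannot be told apart.

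Few transcripts of selected organoids differed between the media beyond the spread of the fit. The BMP target genes Id1 and Id3, the small GTPase gene Rab32 and the early embryo gene Zscan4a rose in base medium, and 0 genes passed the test in the other direction. These are 4 of 21408 genes tested, or 0.0187%, by limma with culture as a block and a Benjamini-Hochberg adjusted p under 0.05. At an unadjusted p under 0.05 there were 1533 genes, or 7.16%. In the same fit, EV organoids had 58.2% of genes called, with 7283 higher (34%) and 5180 lower (24.2%) in base medium, and BRAF organoids had 13.9%, with 1723 higher (8.05%) and 1260 lower (5.89%).

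The count of 4 fell to 2 without selected line 3, EV line 2, EV line 3, BRAF line 2 or BRAF line 3, and Id1 and Id3 were called in each of the 9 fits that left out 1 culture. The 6 selected arrays alone, with 2 residual degrees of freedom for each gene before moderation, gave 0 calls and 2543 genes at an unadjusted p under 0.05. A normexp background correction gave 6 higher and 5 lower genes, and the authors' deposited log2 values gave 4 and 2.

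The size of the change shows the same order without a threshold. The median absolute change per gene was 0.14 in selected, 0.30 in BRAF and 0.61 in EV organoids. A mean change of at least 2-fold was reached by 315 genes in selected organoids (1.47%), 1824 in BRAF (8.52%) and 6734 in EV organoids (31.5%). The SD of the 3 line differences had a median of 0.20 in selected organoids, against 0.31 in BRAF and 0.30 in EV organoids. Within selected organoids the medium moved a gene by a median of 0.18 to 0.20 in each line, while lines differed from each other in 1 medium by a median of 0.29 to 0.36.

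**Figure D1:**
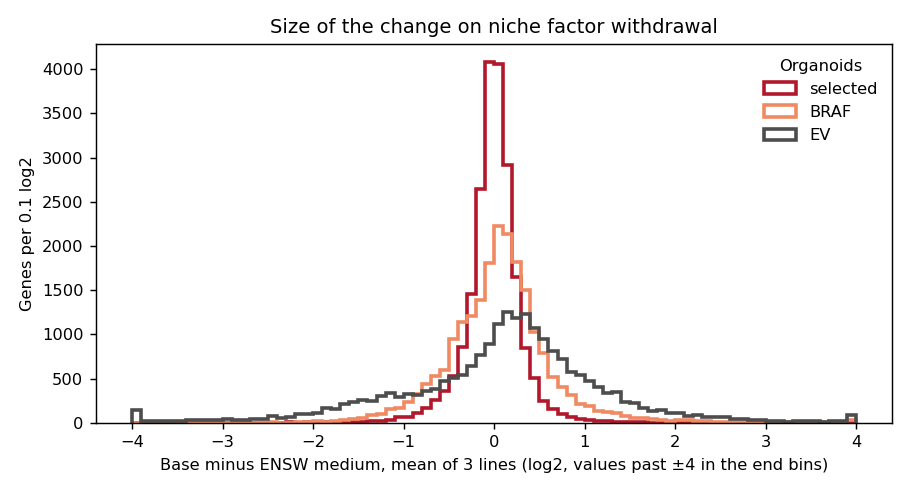
Number of genes (vertical axis, per 0.1 log2) by mean base minus ENSW difference over 3 lines (horizontal axis, log2) in selected, BRAF and EV organoids. The selected distribution is the narrowest, with 315 genes at or past 1 log2 unit against 1824 in BRAF and 6734 in EV organoids.

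Genes called in EV organoids had medians near 0 in selected organoids. The 7283 genes higher in EV organoids in base medium had a median change of 0.93 there and of 0.011 in selected organoids. The 5180 lower genes had medians of -1.21 and 0.0075. Of the 3326 higher genes that reached 2-fold in EV organoids, 33 also reached it in selected organoids, and of the 3210 lower genes 53 did. For the genes called in BRAF organoids the medians in selected organoids were 0.093 for the 1723 higher ones and -0.065 for the 1260 lower ones. Of these, 64.5% and 62.1% changed in the same direction in selected organoids, against 52.5% and 48.3% of the genes called in EV organoids. All 3 selected lines moved that way for 33.3% and 33.2% of them, against 19.6% and 22.0% of the genes called in EV organoids.

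Tested directly, the response of selected organoids differed from that of EV organoids for 8948 genes (41.8%), 4104 of them with a higher and 4844 with a lower difference in selected organoids. It differed from that of BRAF organoids for 128 genes (0.598%), 8 higher (0.0374%) and 120 lower (0.561%). The median of all genes in the first of these tests lay at -0.19, and at -0.07 after quantile normalization, so single differences from EV organoids are to be read against that shift. The count of 128 depended on single cultures: leaving out selected lines 1, 2 or 3 gave 0, 1 and 0 calls (2657 and 2711 genes at an unadjusted p under 0.05 where 0 were called), leaving out EV lines 1 or 3 gave 54 and 12, and leaving out BRAF lines 1, 2 or 3 gave 1229, 12 and 5. The authors' deposited log2 values gave 68 higher and 198 lower genes, and normexp 61 and 221.

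The BMP target list had the clearest change. Of its 9 measured genes, 2 were called, both higher, against 0.0187% of all genes, and 8 had a mean above 0, with a list median of 1.35 against -0.0007 over all genes tested. In 7 of the 9 all 3 lines were higher in base medium, a pattern found in 19.7% of all genes here and in 45.2% of genes in EV organoids. The list median was 2.04 in EV organoids, with 6 called higher against 34% of all genes, and 1.36 in BRAF organoids, with 4 called higher against 8.05%.

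Id1 encodes a helix-loop-helix protein that binds and blocks other such factors and is a direct target of BMP SMADs. Its level in ENSW medium was 2.06 in line 1, 1.35 in line 2 and 1.60 in line 3, and in base medium 5.00, 4.43 and 5.14. All 3 base arrays lay above all 3 ENSW arrays, as they did for 3.1% of genes. The rise was 3.19 ± 0.18, or 9.10-fold, with a limma adjusted p of 0.00116, and the lines rose by 2.94, 3.08 and 3.54. Here and below, ± gives the standard error of the fit, which is pooled over the 3 organoid types. It is not the spread of the 3 selected lines alone. The probe lies at chr2:152563083-152563142 (mm9, per the files). Id1 rose by 2.73 in EV and 2.91 in BRAF organoids, and the response of selected organoids differed from these by 0.46 ± 0.26 (adjusted p = 0.182) and 0.28 ± 0.26 (adjusted p = 0.580). With each of the 9 cultures left out in turn, the adjusted p of the rise ran from 0.00215 to 0.0162.

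Id3, a second member of the family, changed most. It lay at -1.33, -2.95 and -4.66 in ENSW medium and at 3.43, 1.02 and 0.88 in base medium. The media did not overlap. The rise was 4.76 ± 0.31 (adjusted p = 0.00178), or 27.1-fold, and was 4.76, 3.97 and 5.54 by line. It was 4.68 in EV and 4.35 in BRAF organoids, and the tests of the difference gave 0.08 ± 0.44 (adjusted p = 0.899) and 0.41 ± 0.44 (adjusted p = 0.636). Without the pairing of media by line, the adjusted p for Id3 was 0.504 and that for Id1 0.000230. The Id3 probe spans chr4:135700075-135700249 (mm9).

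The other members of the list except Msx2 moved in the same direction on average but did not pass the test. Id2 lay at 1.73, 2.34 and 1.87 in ENSW medium and at 2.98, 3.29 and 3.72 in base medium, without overlap, a difference of 1.35 ± 0.22 (adjusted p = 0.255). With normexp Id2 was called (adjusted p = 0.0251). Id4 was not well above background on any ENSW array and reached -2.16 in line 1 and -2.17 in line 3 in base medium, while line 2 stayed at -7.59. Over the 3 lines Id4 was at least 2.56-fold higher (adjusted p = 0.458), a bound that sets the base mean against the lowest signals well above background. Without selected line 2, Id4 was called (4.81, adjusted p = 0.0277). Smad6 and Smad7, inhibitory SMADs that BMP signalling induces as feedback, differed by 1.26 ± 0.55 (adjusted p = 0.699) and 0.93 ± 0.31 (adjusted p = 0.560). The homeobox genes Msx1 and Msx2 differed by 0.37 and -0.04.

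Atoh8, a helix-loop-helix factor induced by BMP in liver and other cells, responded more in selected than in EV organoids. Its level was -0.19, -3.12 and -2.33 in ENSW medium and 2.76, -0.68 and 1.56 in base medium. Each line was higher in base medium, by 2.94, 2.44 and 3.89, but line 1 in ENSW medium lay above line 2 in base medium. The mean difference of 3.09 ± 0.46 did not pass (adjusted p = 0.203), but was called with normexp (adjusted p = 0.0251). In EV organoids it was 0.27 and in BRAF organoids 0.88, and the selected response was 2.82 ± 0.65 above that of EV organoids (adjusted p = 0.00889) and 2.22 ± 0.65 above that of BRAF organoids (adjusted p = 0.144). Of the 9 measured BMP targets, 1 (Atoh8) had a higher and 1 a lower selected response than in EV organoids. Of all genes, 19.2% and 22.6% had.

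**Figure D2:**
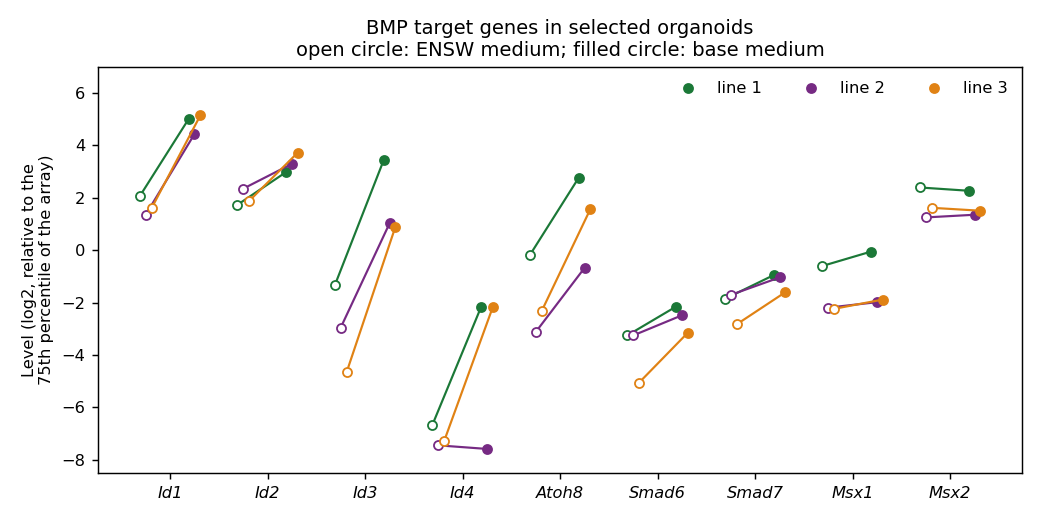
Levels (vertical axis, log2, 75th percentile of each array set to 0) of the 9 measured BMP targets in the 3 selected lines, with open circles for ENSW and filled circles for base medium and a line joining the arrays of 1 organoid line. Id1, Id2 and Id3 are higher in base medium in every line without overlap of the media, Id4 in lines 1 and 3, and Msx2 differs by -0.04 on average.

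Of the genes for BMP ligands, receptors and antagonists, none of 18 measured was called by limma (2 at an unadjusted p under 0.05), and their median was -0.05. The ligand gene Bmp4 went from -0.44, -3.25 and -0.90 in ENSW to -1.80, -4.73 and -3.92 in base medium. Each line was lower, with a mean difference of -1.95 ± 0.46 (adjusted p = 0.401), whereas Bmp4 rose by 1.26 in EV organoids, and the test of the difference gave -3.21 ± 0.65 (adjusted p = 0.00501). Bmp2, another ligand gene, differed by -0.19 in selected and 3.83 in EV organoids (test of the difference -4.02 ± 0.46, adjusted p = 0.00109). Nog, which encodes noggin itself, differed by 0.08.

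Rab32 encodes a small GTPase of vesicle traffic to lysosome-related organelles. It lay at -1.57, -1.001 and -1.39 in ENSW medium and at -0.30, -0.05 and 0.19 in base medium, with no overlap. The rise of 1.27 ± 0.13 (adjusted p = 0.0381) was 2.41-fold. EV and BRAF organoids rose by 0.76 and 0.73. The call was lost in each of the 9 fits without 1 culture (adjusted p = 0.0616 to 0.450).

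Zscan4a belongs to a cluster of near-identical zinc finger genes of the early embryo, whose copies 1 probe may not separate. It lay at -0.95, -7.23 and -5.56 in ENSW medium and at 0.20, -5.46 and -4.15 in base medium. The level of line 1 stood far above those of the other lines in both media, and the probe was well above background on 1 ENSW and 2 base arrays. It rose by 1.44 ± 0.13 (adjusted p = 0.0171), by 1.15, 1.76 and 1.40 in the lines, but these sizes include arrays at background. With normexp the difference was 0.36 (adjusted p = 0.818), and with the authors' deposited log2 values 0.64 (adjusted p = 0.231). The call held without selected line 1 or BRAF line 1 and was lost without any of the 7 other cultures (adjusted p up to 0.311).

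Cholesterol synthesis showed a small shift shared by its genes. All 22 measured genes had a mean above 0, 20 were higher in all 3 lines (19.7% of all genes were), and 19 had an unadjusted p under 0.05 (7.16% of all genes), but 0 were called after adjustment by limma. The list median was 0.58, or 0.60, 0.44 and 0.67 by line, and it lay between 0.50 and 0.67 under the alternatives. Genes of 1 pathway are not independent of each other, so these counts describe the list and are no test of it.

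Hmgcs1, which makes HMG-CoA in the first committed steps of the pathway, lay at 3.53, 4.14 and 4.01 in ENSW and 4.55, 4.80 and 4.88 in base medium. The media did not overlap, and the difference of 0.85 ± 0.14 (adjusted p = 0.220) was the largest of the list. Idi1, the isomerase for isoprenoid units, differed by 0.78 ± 0.23 (adjusted p = 0.501). Mvd and Lss, a decarboxylase of the mevalonate steps and the enzyme that closes the first sterol ring, differed by 0.70 and 0.65.

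EV organoids did not show this shift. Their list median was -0.08, with 4 genes called higher and 8 lower, where 34% and 24.2% of all genes were. The response of selected organoids was higher than theirs for 14 of the 22 genes, where 19.2% of all genes were. For Mvd the difference between the responses was 1.67 ± 0.31 (adjusted p = 0.00366), for Idi1 1.56 ± 0.33 (adjusted p = 0.00608) and for Lss 1.43 ± 0.23 (adjusted p = 0.00227). BRAF organoids had a median of 0.64 with 12 genes called higher, against 8.05% of all genes. The test of selected against BRAF organoids called 0 of 22, with differences from -0.55 to 0.57. A list of 12 fatty acid synthesis genes also lay above 0 throughout in selected organoids, with a median of 0.23 and 0 called by limma, of which 0 had an unadjusted p under 0.05.

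**Figure D3:**
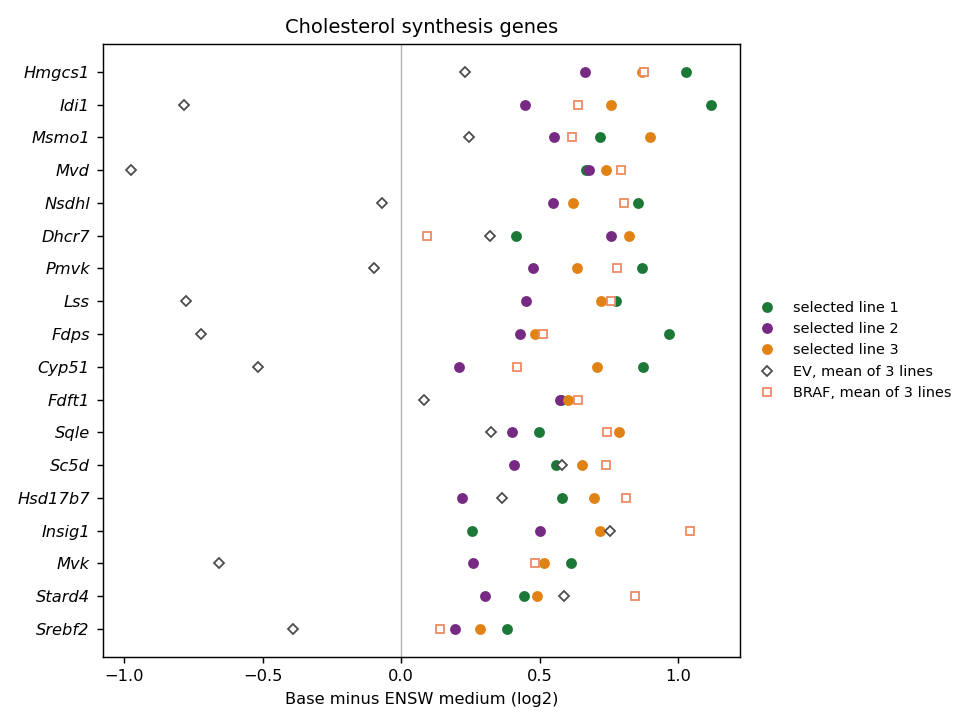
Base minus ENSW difference (horizontal axis, log2) of 18 of the 22 cholesterol synthesis genes, with a point per selected line and open symbols for the EV and BRAF means. The selected means of these genes lie above 0, with Hmgcs1 the highest at 0.85, and the EV means lie on both sides of 0.

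Proliferation genes showed no called change in selected organoids. Mki67, a marker of cycling cells, lay at 3.32, 3.68 and 3.68 in ENSW and 4.34, 3.65 and 3.81 in base medium, with overlap. Mcm6, a subunit of the replicative helicase, lay at 4.44, 4.52 and 4.54 in ENSW and 4.98, 4.30 and 4.61 in base medium. Of 29 measured genes of the list, 28 had a mean above 0 and 0 were called by limma, also 0 at an unadjusted p under 0.05, with a median of 0.32. That median was 0.67 in line 1, 0.04 in line 2 and 0.24 in line 3. All 3 lines were higher for 15 of the 29 genes and lower for 0, against 19.7% and 18.5% of all genes. Genes of the list are not independent of each other, so this count describes the list and is no test of it.

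The same list had a median of -4.52 in EV organoids, with 28 called lower against 24.2% of all genes. In BRAF organoids its median was -0.87, with 4 called lower against 5.89% of all genes. The selected response was higher than the EV response for 28 of 29 genes, against 19.2% of all genes. For Mki67 the difference was 5.39 (adjusted p = 0.00193) and for the topoisomerase gene Top2a 5.48 (adjusted p = 0.00136), both well above background on all 3 EV base arrays. Against BRAF organoids 0 of 29 were called, with a median difference of 1.33. Ribosome biogenesis genes had a median of -0.06 in selected organoids, with 8 of 20 above 0, and of -2.44 in EV organoids. The selected response was higher than the EV response for 20 of 20 genes, against 19.2% of all genes. In BRAF organoids 17 of 20 were called lower, against 5.89% of all genes, with a median of -1.04. In bulk RNA, fewer cells of a type and less RNA per cell cannot be told apart, here and in the lists that follow.

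Wnt targets differed more between selected lines than between media. None of 19 measured genes was called by limma (3 at an unadjusted p under 0.05), and the list median was -0.18. In EV organoids it was -2.01 with 13 called lower and 1 higher, where 24.2% and 34% of all genes were. The gap of line 1 exceeded the change between media for 18 of 19 genes (94.7%), against 71.8% of all genes. In ENSW medium that gap between line 1 and the mean of the other lines had a median of 2.41 over these genes, and it was 0.29 over all genes.

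Nkd1, a negative feedback regulator of Wnt signalling, lay at 4.10 and 4.24 in line 1, in ENSW and base medium. In lines 2 and 3 it lay at -7.56 and -7.25 in ENSW and at -7.68 and -7.22 in base medium, not well above background. Axin2, a feedback scaffold of the beta-catenin destruction complex, lay at 0.74, -2.50 and -2.90 in ENSW and 0.79, -3.06 and -2.94 in base medium. Both genes were thus high in line 1 alone and nearly equal between the media.

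Lgr5, the R-spondin receptor gene that marks crypt base stem cells, lay at 1.56, -7.63 and -1.70 in ENSW and 0.67, -7.71 and -7.44 in base medium. It was well above background in both media of line 1, in ENSW medium only in line 3 and in neither medium of line 2, and the mean difference of -2.23 ± 1.39 did not pass (adjusted p = 0.811). Ascl2, a stem cell transcription factor and Wnt target, lay at 3.23, -4.67 and -3.80 in ENSW and 4.37, -5.51 and -4.87 in base medium. Line 1 was higher in base medium and the other lines lower. Rnf43, which removes Wnt receptors from the surface, differed by -0.11, -1.49 and -2.30 in lines 1, 2 and 3, and Myc by -0.24, -0.71 and -1.01.

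For 9 of the 19 Wnt targets the selected response was higher than the EV response, and for 1 (Wif1) it was lower, where 19.2% and 22.6% of all genes were. Cd44, a crypt surface receptor, differed by 0.41 in selected and -2.01 in EV organoids (test of the difference 2.42 ± 0.28, adjusted p = 0.00109). Myc differed by -0.65 and -2.13 (1.48 apart, adjusted p = 0.0134). Against BRAF organoids 0 of 19 were called. Of 15 stem cell markers, 5 of which are also Wnt targets here, 0 were called in selected organoids by limma and 1 (Hopx, -1.83) had an unadjusted p under 0.05.

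**Figure D4:**
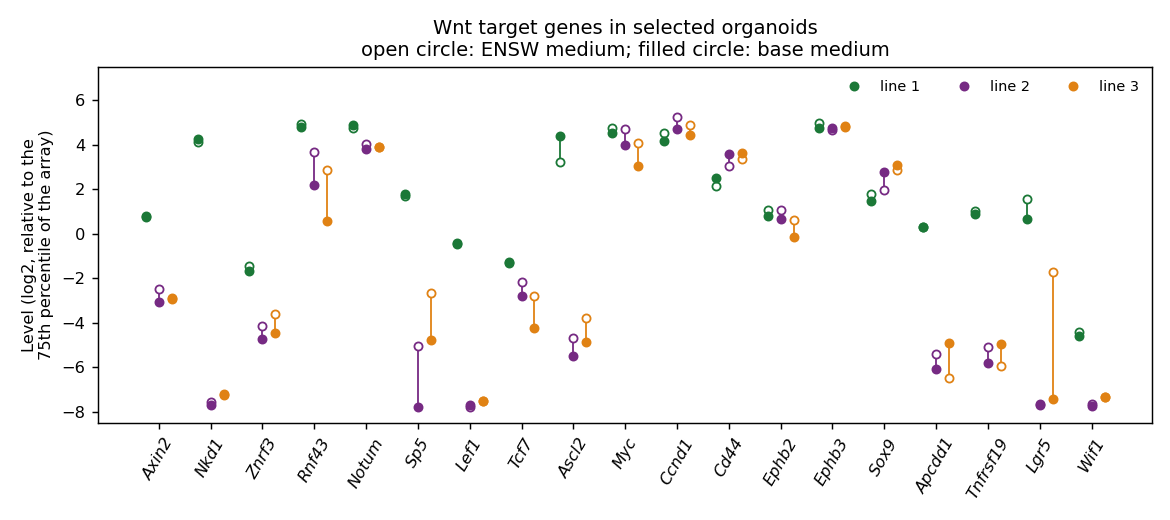
Levels (vertical axis, log2, 75th percentile of each array set to 0) of 19 Wnt targets in the 3 selected lines, with open circles for ENSW and filled circles for base medium. Nkd1 lies at 4.10 and 4.24 in line 1 and below -7 in the other lines, and most pairs of circles lie closer to each other than the lines do.

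MAPK output genes are induced by the ERK kinases downstream of BRAF. Of 20 measured genes 0 were called by limma and 4 had an unadjusted p under 0.05, with a median of -0.19. All 3 lines were lower for 10 of the 20 genes and higher for 1, against 18.5% and 19.7% of all genes. Dusp6, an ERK phosphatase and feedback target, lay at 3.97, 4.83 and 4.68 in ENSW and 3.47, 5.08 and 4.58 in base medium. Etv4, an ETS factor induced by ERK, lay at 3.18, 2.78 and 3.25 in ENSW and 2.89, 2.53 and 2.90 in base medium. Dusp6 was lower in lines 1 and 3 and higher in line 2, and Etv4 was lower in every line, by -0.30 ± 0.16 (adjusted p = 0.764).

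Etv4 fell by 2.23 in EV and by 1.80 in BRAF organoids, and the selected response lay 1.93 above the EV response (adjusted p = 0.00115) and 1.50 above the BRAF response (adjusted p = 0.0367), a call made in 9 of 19 alternatives. Over the list, 3 genes had a higher and 3 a lower selected response than in EV organoids, where 19.2% and 22.6% of all genes had. The median difference was -0.09. Etv4 was the 1 gene of 20 called against BRAF organoids, where 0.598% of all genes were. The EGF family ligand genes Areg and Ereg differed by 0.21 and 0.24 in selected organoids. Both lay lower in line 1, at -0.07 and -1.61 in ENSW medium, than in lines 2 and 3, at 2.82 and 3.14 for Areg and 1.13 and 1.59 for Ereg. Braf, which carries the activable allele, differed by -0.17 ± 0.17 (adjusted p = 0.916), and of its 2 probes 1 went the other way.

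Colonocyte genes mark the absorptive cells of the colon surface. Of 18 measured genes 0 were called in selected organoids by limma and 1 (Car1) had an unadjusted p under 0.05, with a median of 0.03. In EV organoids 16 were called higher, against 34% of all genes, with a median of 2.80. In BRAF organoids 11 were called higher, against 8.05% of all genes, with a median of 2.18. The selected response was lower than the EV response for 12 genes, where 22.6% of all genes were. It was lower than the BRAF response for 3, where 0.561% of all genes were. Fabp2, a fatty acid binding protein gene, lay at -1.79, -1.08 and -2.80 in ENSW and -2.21, -1.16 and -2.25 in base medium. It overlapped between media and differed by 0.02, against 5.35 in EV organoids (adjusted p of the difference 0.00117).

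Krt20, a keratin of surface cells, lay at -5.18, -3.28 and -2.54 in ENSW and -4.91, -2.27 and -0.05 in base medium. Car1, a carbonic anhydrase gene, went from -1.97, 0.60 and -2.63 to 2.24, 0.21 and 0.01. Both therefore varied by line, with differences of 0.26, 1.01 and 2.49 for Krt20 and of 4.21, -0.40 and 2.64 for Car1, and neither passed (adjusted p = 0.793 and 0.626). The chloride exchanger gene Slc26a3 was not well above background on any of the 6 selected arrays. The goblet cell mucin gene Muc2 was well above background in line 3 alone, at -1.65 in ENSW and -4.81 in base medium.

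The interferon response list had a median of -0.16 in selected organoids with 0 of 21 called by limma (0 at an unadjusted p under 0.05). In EV organoids its median was 2.50 with 19 called higher, against 34% of all genes. The selected response was lower than the EV response for 18 of 21 genes, against 22.6% of all genes. In BRAF organoids the median was 1.54 with 10 called higher, against 8.05% of all genes. For 1 gene the selected response was lower than the BRAF response, against 0.561% of all genes. Isg15, a ubiquitin-like protein gene induced by interferon, lay at -0.59, 0.67 and -1.18 in ENSW and -0.72, 0.90 and -1.57 in base medium. Line 2 was higher and the other lines lower, a mean of -0.10 against 2.50 in EV organoids (adjusted p of the difference 0.00401). Antigen presentation genes had a median of -0.25 in selected and 1.15 in EV organoids, and 8 of 12 were lower in response, against 22.6% of all genes.

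**Figure D5:**
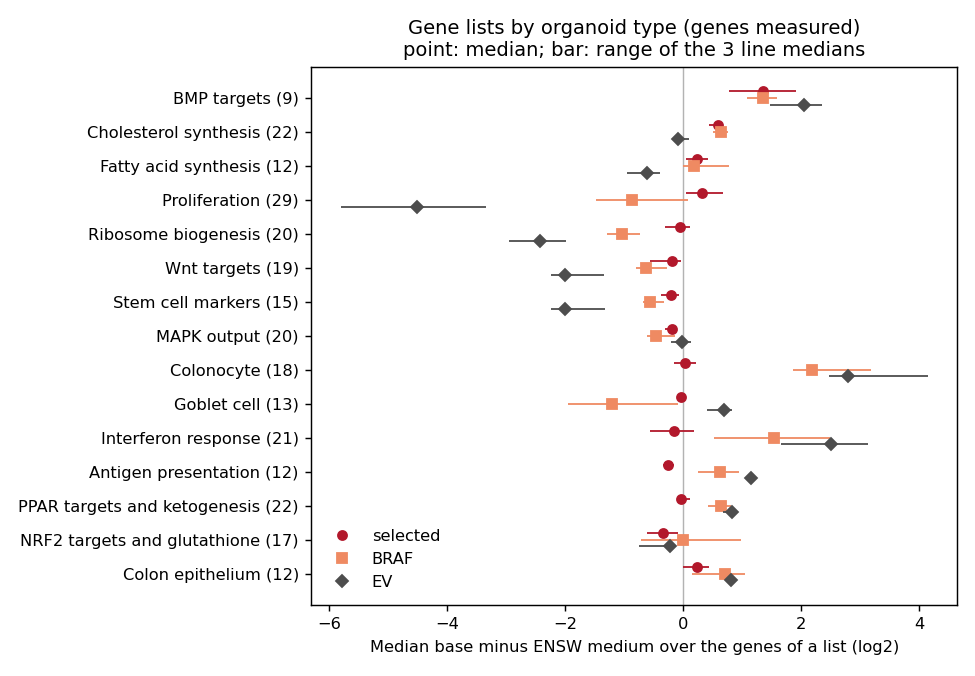
Median base minus ENSW difference (horizontal axis, log2) over the genes of 15 lists, number measured in brackets, in selected, BRAF and EV organoids, with bars for the range of the 3 line medians. In selected organoids the BMP targets (1.35) and cholesterol synthesis (0.58) lie farthest above 0, while in EV organoids proliferation (-4.52) and colonocyte genes (2.80) do so on either side.

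Among single genes below the threshold, the smallest p values for a higher level belonged to Atoh8 and to Hr, which encodes the corepressor hairless. Hr lay at -1.49, -0.33 and 0.40 in ENSW and 0.30, 1.98 and 2.80 in base medium, a difference of 2.17 ± 0.32 (adjusted p = 0.203). Every line was higher by at least 1.79, although the media overlapped. S100a4, a calcium binding protein gene, differed by 1.62 ± 0.29 (adjusted p = 0.280) and Hnf4a, a transcription factor of intestinal and liver epithelium, by 1.00 ± 0.17 (adjusted p = 0.259), each higher in all 3 lines. With normexp S100a4 was called (adjusted p = 0.0389).

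No gene was called lower, and the smallest p belonged to Fetub, which encodes a secreted protease inhibitor. It lay at 1.18, 0.43 and 0.02 in ENSW and -0.24, -0.63 and -1.25 in base medium, a difference of -1.25 ± 0.15 (adjusted p = 0.115). All 3 base arrays lay below all 3 ENSW arrays, as for 2.35% of genes. It was called with normexp and with the authors' deposited log2 values. Rapgef3, which encodes a cAMP-activated exchange factor for RAP GTPases, and Phyhd1 both differed by -1.93 (adjusted p = 0.220 and 0.260). With normexp Phyhd1 was called (adjusted p = 0.0241).

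Some of these genes went the opposite way in EV organoids. Aldh2, the mitochondrial acetaldehyde dehydrogenase gene, lay at 3.18, 2.86 and 3.25 in ENSW and 2.34, 2.07 and 2.37 in base medium. It was lower in each line without overlap, by -0.84 ± 0.12 (adjusted p = 0.203), and rose by 1.08 in EV organoids, so that the responses differed by -1.92 ± 0.17 (adjusted p = 0.000859). Its fall in selected organoids was called with normexp (adjusted p = 0.0417) and with the authors' deposited log2 values (adjusted p = 0.0451). Slc39a4, a zinc importer gene, differed by -1.22 ± 0.21 (adjusted p = 0.276) in selected organoids and rose by 1.67 in EV and 1.02 in BRAF organoids. The tests of the difference gave -2.89 ± 0.30 (adjusted p = 0.000974) and -2.24 ± 0.30 (adjusted p = 0.0322).

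NRF2 target and glutathione genes had a median of -0.35, with 0 of 17 called by limma and 4 at an unadjusted p under 0.05. The 4 are the glutathione transferase genes Gsta3 (-1.66) and Gstm2 (-1.24), the cystine transporter gene Slc7a11 (-0.75) and the efflux pump gene Abcc4 (-0.75), all lower in each line. Fetal-like and YAP target genes had a median of -0.23 with 3 of 15 at an unadjusted p under 0.05, namely Ly6a (-0.89), Ccn2 (-1.04) and Ankrd1 (-1.13). Clu, a marker of the fetal-like state, lay at 0.58, 7.27 and 8.31 in ENSW and 0.78, 8.11 and 8.61 in base medium. Clu was thus low in line 1 and high in the other lines in both media.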

How the data were processed

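Labelled RNA of 20 single-colour arrays gave scanner files with an intensity for each spot, which Feature Extraction 10.7.3.1 produced with mm9 probe positions, per the file headers. The processed signal used here is the background-subtracted intensity of the deposited files. A deposited table of log2 values was made by the authors. Its columns ranked probes as the median signal did (Spearman 1), had equal distributions (medians 5.66 to 5.68) and are used as an alternative. The submitters' processing notes name limma, with no version.

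Control and outlier spots were left out, 0 spots were saturated, and log2 processed signals minus each array's 75th percentile were averaged per probe. A probe stayed in when 3 or more of the 18 fitted arrays showed it well above background (26802 probes), 34 with a missing value on an array were dropped, and the brightest probe stood for each of 21408 genes, 16077 with a symbol updated through RefSeq. limma 3.58.1 (R 4.3.3) fitted 9 cultures as a fixed block and 1 medium effect per organoid type, with 6 residual degrees of freedom. The media share a culture and a slide, and deviations of the arrays of 1 selected culture correlated at 0.81 to 0.87 (EV 0.42 to 0.60, BRAF 0.49 to 0.69), so the design is paired. The block also takes up slide. Differences carry the standard error of the fit. The test was checked on simulated data, in which 100 genes were moved by 1 log2 unit and 100 by 2. It called 51% of the first and 88% of the second, with 8 false calls. The adjusted threshold is easier to pass when many genes move at once. With 4 genes called in the data, these shares may overstate the power there. A gene that was not called may therefore still have changed. Python 3.11.15, pandas 2.3.3, numpy 2.4.6 and matplotlib 3.10.9 made tables and plots. The number of arrays limits the precision. Wild-type organoids (2 arrays) were not used in the fit.

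Named genes were the 12 largest called changes per direction with a symbol, filled with the smallest p where fewer were called, the 5 smallest p per direction of each test of a differing response, called members of 39 gene lists and a fixed set of niche genes. Other list members were named from the lists after their values were seen. The comparison, members and lists were chosen with earlier results of these data known. Alternatives changed the block, background correction, normalization, filter, probe summary, variance prior and the cultures included. Some measured genes are counted in their lists and not reported by name here.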

Additional observations from a re-analysis of the deposited data

Results flagged for a closer look

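The following differences between the responses of organoid types (base minus ENSW medium, log2) passed the limma test of the difference and were named by the smallest p per direction. Against EV organoids the selected response was higher for the mitotic and replication genes Ska2 by 3.47, Clspn by 4.72, Plk4 by 4.45 and Ube2s by 2.56, and for the protein kinase A inhibitor gene Pkib by 1.91. Ska2, Clspn and Plk4 were not well above background on any EV base array, so the sizes of these 3 differences are set by signals at background. With normexp they were 0.27 for Ska2 (adjusted p = 0.251), 0.71 for Clspn (adjusted p = 0.0201) and 0.63 for Plk4 (adjusted p = 0.0258). In selected organoids themselves these 5 genes differed by 0.11, 0.30, 0.48, 0.32 and 0.27 between the media. It was lower for Saa1, an acute phase gene, with a difference of -4.09, for the carnitine transporter gene Slc22a4 with -3.81 and for the retinal dehydrogenase gene Aldh1a1 with -3.42. It was also lower for Smim9 with -5.97 and for 4931428L18Rik with -5.06, which were not well above background on any selected array. With normexp these were -1.99 for Smim9 and -1.12 for 4931428L18Rik. Smim9 was at least 22.5-fold higher in base medium in EV organoids, and 4931428L18Rik at least 9.05-fold.

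Against BRAF organoids the selected response was higher for Tmem47 by 2.41, for Etv4 by 1.50, for Bend5 by 1.45, for Pkib by 1.11 and for Capn9 by 1.69, the last of which was not well above background on any selected array. It was lower for Aldh1a1 with -2.83, for the acute phase gene Saa2 with -4.60, for Smim9 with -4.19, for the phosphatase gene Ptprh with -3.31 and for Btnl7-ps with -4.06. Saa2, Smim9, Ptprh and Btnl7-ps were not well above background on any selected array, so their log2 sizes are uncertain. With normexp the differences were -2.31 for Saa2, -1.99 for Ptprh, -0.52 for Smim9 (adjusted p = 0.679) and -0.62 for Btnl7-ps (adjusted p = 0.198). Those of Tmem47, Bend5 and Capn9 were 1.03, 0.35 and 0.33 with normexp, none of them called. The 10 calls against BRAF organoids were lost in part of the alternatives, with Aldh1a1 and Saa2 called in 14 of theirs and Bend5 and Capn9 in 5.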

How the results depend on the processing

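Of 4 genes called in selected organoids, Id1 was called in 20 and Id3 in 19 of 21 alternatives, Rab32 and Zscan4a in 6 each. The number called was 1 with no replicate block, 0 with the 6 selected arrays alone, 11 with normexp, and 2 with the 12 BRAF and selected arrays or the 12 EV and selected arrays, both chosen after seeing the data. Leaving out 1 culture at a time gave 2 to 4. For the difference from EV organoids, the number was 5195 with no replicate block, so the pairing of media by culture adds calls, and 6558 to 9530 with 1 culture left out, and the other alternatives kept it within 1.5 times. For the difference from BRAF organoids it was 0 with no replicate block, 354 with culture as a random block, 282 with normexp, 266 with the authors' deposited log2 values, 6 with no filter on dim probes, 292 with an intensity trend in the variance prior and 8 with the 12 BRAF and selected arrays. Leaving out 1 culture gave 0 to 1229. The cause was not tested. No called gene named here changed direction. List medians stayed above 0 for BMP targets (0.61 to 1.91), cholesterol synthesis (0.50 to 0.67) and proliferation (0.14 to 0.47) and below 0 for Wnt targets (-0.35 to -0.045), while those of colonocyte (-0.081 to 0.22) and ribosome biogenesis genes (-0.14 to 0.10) fell on both sides of 0. Within the slide of lines 1 and 2 Id1 rose by 3.01 and Id3 by 4.37, and within that of line 3 by 3.54 and 5.54. Genes near background have signals with no order, which limits Id4, Lgr5, Nkd1 and Zscan4a.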
